A study of Mus musculus with 39 samples.

Results

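The proteasome subunits were the 45 genes, on 47 probes of the 20868 gene probes of the array (16887 gene symbols in all), whose symbol in the platform's probe annotation begins with Psma to Psmg followed by a digit, without the interferon-induced catalytic subunits Psmb8, Psmb9 and Psmb10. They comprised 16 genes of the core particle (Psma1 to Psma8, Psmb1 to Psmb7 and Psmb11), 23 genes named for the regulatory particles (Psmc1 to Psmc6, Psmd1 to Psmd14, Psme1, Psme3 and Psme4) and 4 genes of an inhibitor and of assembly factors (Psmf1, Psmg1, Psmg2 and Psmg3). The rule also took in Psmc3ip and Psme3ip1, whose products are binding partners named after a subunit and not subunits, and these 2 genes were kept apart from every class. Psme2, a partner of Psme1, was not matched. All 47 probes passed the filter on dim signals, as did 17560 of all 20868 gene probes, and where a gene had more than 1 probe the brighter probe was used.

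The proteasome is the barrel-shaped protease that degrades proteins tagged with ubiquitin. Alpha subunits gate the barrel, beta subunits form its inner rings and carry the proteolytic sites, and a regulatory particle of ATPases and non-ATPases recognises, unfolds and feeds in the substrate. Under interferon, and constitutively in immune cells, Psmb8, Psmb9 and Psmb10 replace the standard catalytic subunits Psmb5, Psmb6 and Psmb7. Transcription of the standard subunits as a set is driven mainly by the factor encoded by Nfe2l1, and that encoded by Nfe2l2 is known to raise several of them under oxidative stress.

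Lung RNA of 39 single mice was hybridised, each on its own 2-colour array, against a common mouse reference RNA. Male F1 mice of C57BL/6 and CBA, 8 to 10 weeks old, breathed mainstream tobacco smoke (MTS) from 2 cigarettes per day on 5 days per week for 6 weeks (6 week smoke, n = 5) or 12 weeks (12 week smoke, n = 4). Sham mice were held in the same restrainers without smoke for 6 weeks (6 week sham, n = 5) or 12 weeks (12 week sham, n = 5). The remaining 4 groups of 5 mice were killed 6 weeks after the last exposure and are called 6 week smoke and break, 6 week break sham, 12 week smoke and break and 12 week break sham. No other treatment or allele distinguished the groups. The paper took the RNA from the upper part of the left lobe, while the right lobe was lavaged. Its cell types were not separated, so that fewer cells of a type and less RNA per cell cannot be told apart. Values are log2 ratios of lung to reference, so that a value of 0 marks equal signal and a value of 1 a lung signal at double the reference.

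The median lung signal of an array lay between 2.20 and 8.94 times its local background, and between 48.4% and 94.6% of gene probes exceeded the negative controls. Cyp1a1, an enzyme of tobacco smoke metabolism induced through the aryl hydrocarbon receptor, marked the smoke arrays, with log2 ratios of 5.07 to 8.06 in the 6 week smoke and 5.53 to 7.36 in the 12 week smoke group. The array labelled 6 week sham m2 had a Cyp1a1 log2 ratio of 6.46, inside the range of the smoke arrays, while the other 4 arrays of its group lay between 1.25 and 2.81. In the sequence of exposure-date labels this array stands between a 6 week break sham and a 12 week sham array. Every other run of that sequence has a 12 week smoke array there, and the run of this array has none. Whether its label is right was not tested. The array was kept under its label. The counts and class medians of the comparisons that use it, and the genes with the smallest p-values, are also given without it.

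Against the reference, lung held less of nearly every standard subunit. The mean log2 ratio over the 39 arrays was under 0 for 35 of the 39 core and regulatory genes, compared with 45.6% of all probes tested, and it was under 0 in every single array for 23 of the 39, compared with 16.5% of all probes tested. The median over the 16 core genes was -0.68 and that over the 23 regulatory genes -0.67, where that over all probes tested was 0.04. The count under 0 was 34 to 36 of 39 with other background corrections, with other scalings and in the authors' own log2 ratios. Every array had the lung in the same dye, so that a dye effect of a probe and its level against the reference cannot be told apart; this touches the levels and not the differences between groups.

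The lowest level in the core was that of Psmb7, the trypsin-like catalytic subunit, with a median of -1.46 and a range over the 39 arrays of -2.25 to -0.84. Psmb5, the chymotrypsin-like catalytic subunit, lay between -0.99 and -0.46, and Psmb6, the caspase-like one, between -0.33 and 0.44. These are ratios of each gene to its own reference signal, in which Psmb5 and Psmb6 did not overlap and Psmb7 and Psmb5 did. The subunits that replace them had higher ratios. Psmb8 lay between -0.01 and 1.20, Psmb9 between 0.69 and 1.69 and Psmb10 between 0.55 and 1.21. In 39 of 39 arrays the ratio of Psmb8 exceeded that of Psmb5, the ratio of Psmb9 that of Psmb6, and the ratio of Psmb10 that of Psmb7, which says nothing of the amounts of the transcripts.

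Among the regulatory genes Psmd14, the deubiquitinase of the lid, had the lowest median, -1.30, and Psme1, a subunit of the interferon-inducible activator cap, was the only regulatory gene with a mean above 0, with a median of 0.30 and a range of -0.13 to 0.51. The ATPases Psmc1 to Psmc6 had medians between -0.89 for Psmc3 and -0.11 for Psmc1. The assembly chaperones Psmg1 and Psmg2, which form a heterodimer that scaffolds the alpha ring, lay at medians of -1.51 and -1.52, below Psmg3 at -0.60. Psma8, an alpha subunit of the testis, and Psmb11, the catalytic subunit of the thymus, exceeded the negative controls in the lung channel in 32 and 21 of the 39 arrays and in the reference channel in 22 and 18, so their ratios, at medians of 0.37 and 0.01, are those of signals close to background. The other core genes exceeded the controls in the lung channel in 38 or 39 arrays. Psmb1 was at the limit of the scanner in 20 arrays in the lung channel and in 21 in the reference channel, where a ratio is drawn towards 0, and its ratios lay between -0.27 and 0.27.

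**Figure D1:**
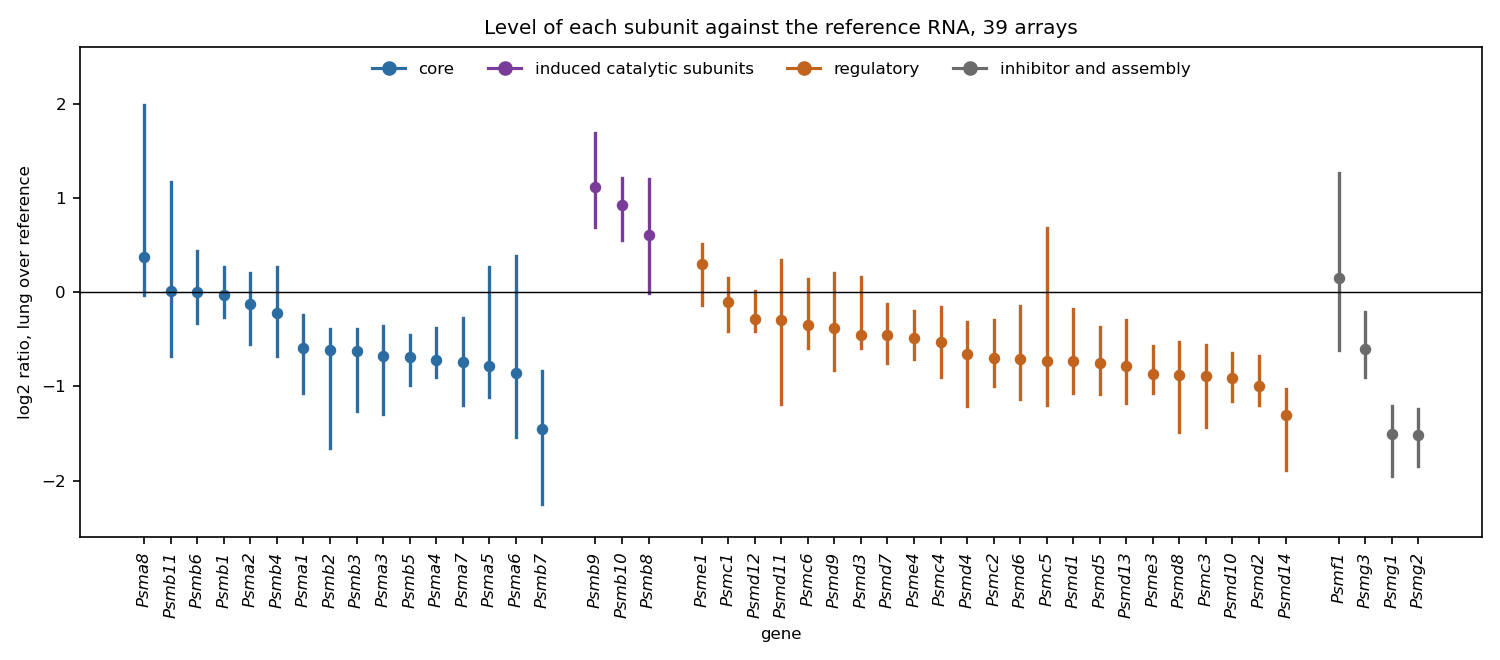
Log2 ratio of lung to reference for each subunit gene (horizontal axis), with the median of the 39 arrays as a point and the lowest to the highest array as a line. The means of 13 of the 16 core and 22 of the 23 regulatory genes are under 0, with Psmb7 at -1.46 and Psmd14 at -1.30, whereas the 3 induced catalytic subunits Psmb8, Psmb9 and Psmb10 lie above their standard counterparts.

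The first question was whether MTS changed the subunits. No core or regulatory gene, and none of the 4 inhibitor and assembly genes, passed an adjusted p of 0.05 in limma (Benjamini-Hochberg over all 17560 probes) after 6 weeks, where 0.0626% of all probes did, after 12 weeks, where 0.433% did, or in the average over both durations, where 1.22% did. None passed either when the array 6 week sham m2 was left out, which took the calls over all probes from 11 to 33 at 6 weeks and from 214 to 285 in the average. At an unadjusted p under 0.05 the average over both durations held 8 of the 39 core and regulatory genes, all 8 higher in smoke (Psma3, Psma6, Psmb5, Psmc2, Psmc3, Psmd5, Psmd6 and Psmd14), beside 7.52% of all probes higher and 4.72% lower. At 6 weeks it held 6 of the 39, all higher, beside 5.07% of all probes that were higher at that p. At 12 weeks it held 2 of the 39, both higher, beside 5.51% of all probes that were higher. With 6 week sham m2 left out the 6 week count was 8 of the 39, all higher, and the other counts were 8 and 2.

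The fold changes were small, and their intervals bound them. In the average over both durations the log2 fold changes of the 39 genes ran from -0.11 for Psma5 to 0.35 for Psma6, and for 37 of the 39 the whole 95% interval lay within 0.5 of 0. At 6 weeks this held for 35 and at 12 weeks for 32 of the 39. The residual standard deviation between mice of a group had a median of 0.14 over the 39 genes, against 0.25 over all probes tested. The p-values measure the spread between these mice.

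The medians of core and regulatory genes stood in opposite order at the 2 durations, and the difference between the classes was not tested. At 6 weeks the median log2 fold change was -0.001 over the 16 core genes and 0.12 over the 23 regulatory genes, beside 0.01 over all probes, and 8 of 16 core and 20 of 23 regulatory genes lay above 0, beside 52.8% of all probes. At 12 weeks the medians were 0.07 and 0.002, beside 0.01 over all probes, with 10 of 16 and 12 of 23 genes above 0, beside 51% of all probes. In the average they were 0.04 and 0.07, with 28 of the 39 genes above 0, beside 51.7% of all probes. With 6 week sham m2 left out the 6 week medians were 0.02 and 0.09, with 9 of 16 and 18 of 23 genes above 0. Those of the average were then 0.03 and 0.06, with 27 of the 39 genes above 0. For the difference between the effects at 12 and at 6 weeks no member passed, where 0% of all probes did, and the medians were -0.06 over the core and -0.04 over the regulatory genes, or -0.05 and -0.03 with 6 week sham m2 left out.

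**Figure D2:**
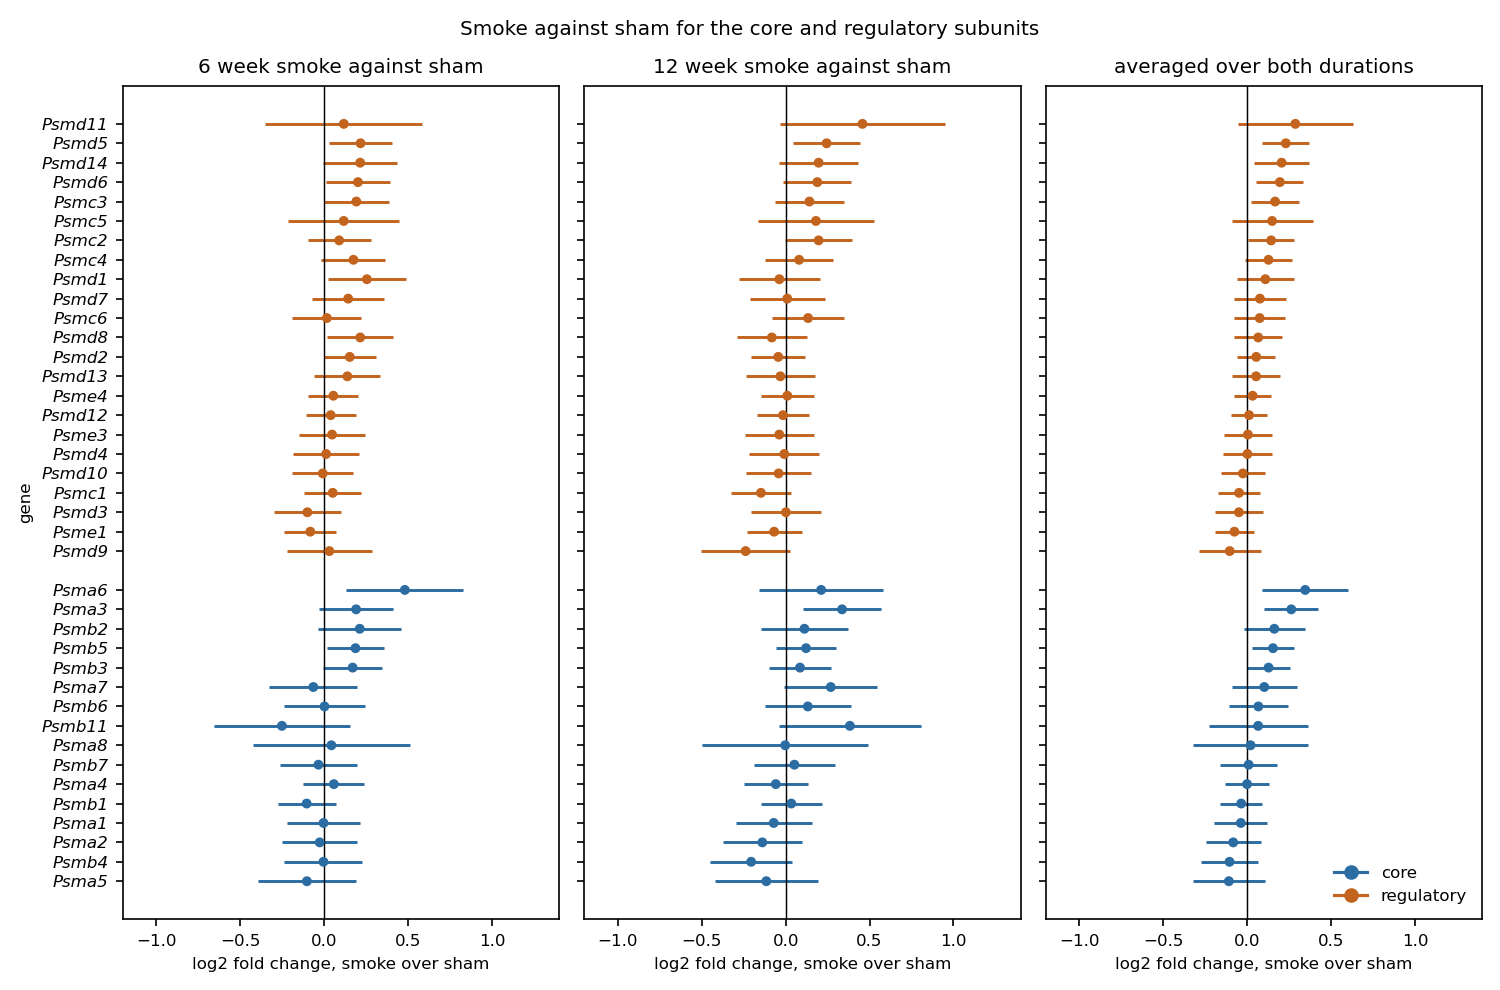
Log2 fold change of smoke over sham (points) with its 95% interval from limma (lines) for 16 core and 23 regulatory genes after 6 weeks, after 12 weeks and in the average of both, ordered within each class by the average. None passes an adjusted p of 0.05, and at 6 weeks 20 of the 23 regulatory but 8 of the 16 core genes lie above 0.

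Of the alpha ring, whose subunits gate entry to the barrel, Psma3 had the smallest adjusted p in the average over both durations. It measured -0.44, -0.51, -0.50 and -0.45 in the 4 mice of the 12 week smoke group and -0.92, -0.68, -0.46, -1.30 and -0.90 in the 12 week sham group. The smoke mice sat close together at the top of the sham range and overlapped it through 1 sham mouse, with a log2 fold change of 0.34 ± 0.11 (SE) and an adjusted p of 0.25 in limma. At 6 weeks Psma3 measured -0.51, -0.63, -0.66, -0.88 and -0.68 in smoke and -0.78, -1.04, -0.66, -1.27 and -0.84 in sham mice, with a log2 fold change of 0.19 ± 0.11. The average over both durations was 0.26 ± 0.08, at an adjusted p of 0.094 in limma, and 0.26 at an adjusted p of 0.10 with 6 week sham m2 left out. It passed, at an adjusted p of 0.040 and a log2 fold change of 0.31, when the sham mouse with the highest value, 12 week sham m3, was left out.

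Psma6, another alpha subunit, had the largest value at 6 weeks, a log2 fold change of 0.48 ± 0.17, and its size came largely from 1 mouse. The 6 week smoke mice measured -0.54, -0.88, -0.93, 0.38 and -0.73, the sham mice -0.85, -1.19, -0.95, -1.16 and -0.83. Without the mouse at 0.38, 6 week smoke m4, the log2 fold change was 0.18, and the average over both durations went from 0.35 to 0.18. Psma5, Psma2 and Psmb4 were the core genes with the lowest average, at -0.11, -0.08 and -0.10, none of them with an unadjusted p under 0.05, and all 3 reached the scanner limit in some arrays.

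Of the 3 standard catalytic subunits, Psmb5 was the one whose smoke and sham mice were separate. At 6 weeks it measured -0.59, -0.65, -0.54, -0.62 and -0.67 in smoke and -0.94, -0.84, -0.70, -0.68 and -0.99 in sham mice. Every smoke mouse was above every sham mouse, though the nearest pair stood at -0.67 and -0.68 and 1 sham array was at the scanner limit in a channel, and it was the only member without overlap at 6 weeks, where 0.524% of all probes were higher and 0.325% lower without overlap. The log2 fold change was 0.19 ± 0.08 at an unadjusted p of 0.030 and an adjusted p of 0.53 in limma. At 12 weeks Psmb5 measured -0.68, -0.64, -0.70 and -0.51 in smoke and -0.75, -0.71, -0.64, -0.94 and -0.87 in sham mice, which overlapped, with a log2 fold change of 0.12 ± 0.09. Psmb7 and Psmb6 had averages over both durations of 0.01, with a 95% interval of -0.16 to 0.18, and 0.07, with an interval of -0.11 to 0.24. At 12 weeks none of the 45 genes was without overlap, while 1.99% of all probes were higher and 1.38% lower without overlap.

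The catalytic genes Psmb5 and Psmb6 carry in their promoter window the letters TGACNNNGC, the core of the antioxidant response element to which the factors encoded by Nfe2l1 and Nfe2l2 bind with a small Maf partner. The windows, from RefSeq in build GRCm38.p6, span 250 bases before to 50 after an annotated start, and both strands were searched. They are shown because smoke raised Nfe2l2 in these lungs, as given further on, and each stretch of 30 bases has the motif in capitals, in the direction of its gene.
Psmb5 (chr14:54618023-54618052, minus strand): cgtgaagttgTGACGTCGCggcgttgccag
Psmb6 (chr11:70525338-70525367, plus strand): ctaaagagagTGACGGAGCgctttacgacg
Psmc6 (chr14:45329587-45329616, plus strand, motif on the opposite strand): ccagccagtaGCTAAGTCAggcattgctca
Of the 39 core and regulatory genes 32 had a window, and 6 of them, 18.8%, held the motif: Psmb5, Psmb6, Psmc6, Psmd9, Psmd12 and Psme4. The stretches printed are those of the genes with the highest average log2 fold changes among the 6. Psmb5, Psmb6 and Psmc6 had 0.15, 0.07 and 0.07, and Psmd9, Psmd12 and Psme4, not printed, had -0.10, 0.01 and 0.03. Of all 27025 genes with a window 14.0% did. The median average log2 fold change was 0.05 over the 6 genes with the motif and 0.07 over the 26 without it in these windows, which does not say that a factor binds or fails to bind.

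**Figure D3:**
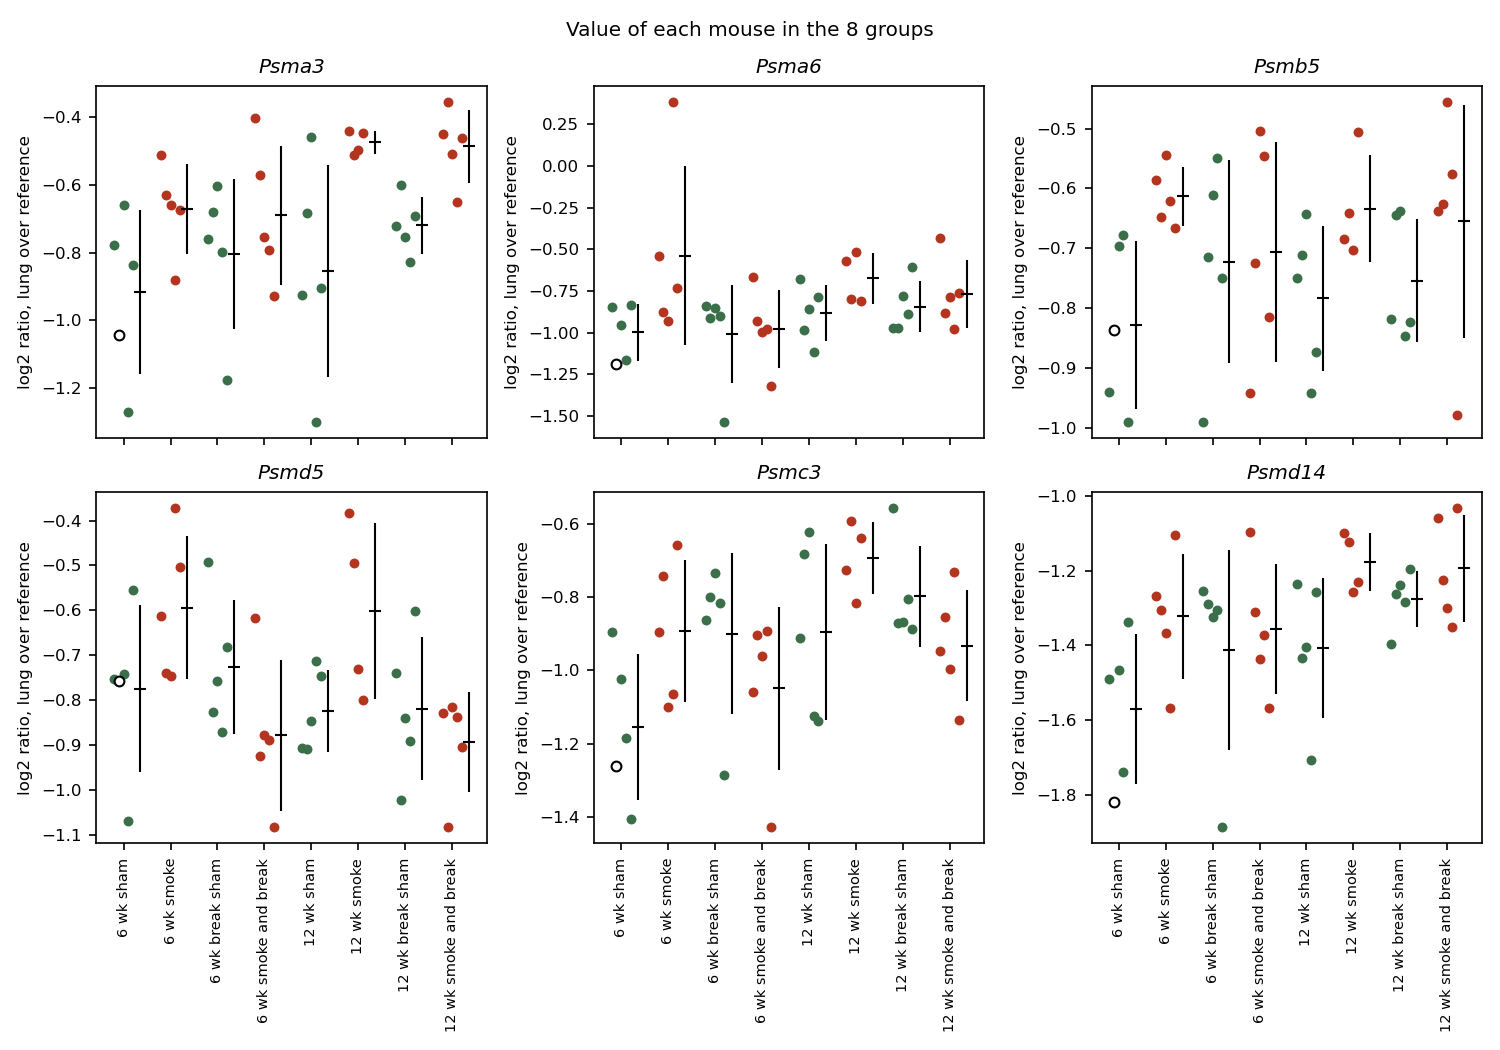
Log2 ratio of lung to reference of every mouse (points, green for sham and red for smoke groups) for Psma3, Psma6, Psmb5, Psmd5, Psmc3 and Psmd14 in the 8 groups, with mean and SD beside them; the open circle is the array labelled 6 week sham m2. Psmb5 separates smoke from sham at 6 weeks, and the size of the 6 week value of Psma6 rests largely on 1 mouse at 0.38.

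Among the regulatory genes the ATPases, which unfold the substrate, had mostly positive values. All 6 had a log2 fold change above 0 at 6 weeks and 5 of 6 at 12 weeks, beside 52.8% and 51% of all probes. Their medians were 0.10 and 0.14, and none passed. With 6 week sham m2 left out, 5 of 6 were above 0 at either duration, with medians of 0.14, and none passed. Of the 14 Psmd genes, the non-ATPases, 12 were above 0 at 6 weeks, with a median of 0.14 over all arrays. At 12 weeks 6 of the 14 were above 0, with a median of -0.01. The 6 week values above 0 were thus shared by the non-ATPases. Psmc3 measured -0.89, -0.74, -1.10, -1.06 and -0.66 in 6 week smoke and -0.90, -1.26, -1.02, -1.19 and -1.41 in 6 week sham mice. The groups overlapped, at a log2 fold change of 0.19 ± 0.10, and the average over both durations was 0.17 ± 0.07 at an adjusted p of 0.31 in limma. Psmc2 had an average of 0.14 ± 0.07 on its brighter probe and 0.15 ± 0.10 on the dimmer one. The averages of Psmc5, Psmc4 and Psmc6 were 0.15, 0.13 and 0.07, and Psmc1 was the 1 ATPase below 0, at -0.05.

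Psmd5, a chaperone that escorts ATPases during assembly of the regulatory particle, had the smallest adjusted p of all members. It measured -0.38, -0.50, -0.73 and -0.80 in 12 week smoke and -0.91, -0.91, -0.85, -0.71 and -0.75 in 12 week sham mice. At 6 weeks it measured -0.61, -0.74, -0.75, -0.37 and -0.50 in smoke and -0.75, -0.76, -0.74, -1.07 and -0.55 in sham mice. At each duration 2 smoke mice were above all sham mice and the rest lay among them. The 6 week smoke mouse at -0.37 was m4, whose array had the smallest share of gene probes above the negative controls, 48.4%. The log2 fold changes were 0.24 ± 0.10 and 0.22 ± 0.09, and their average of 0.23 ± 0.07, a 1.17-fold higher ratio, had an adjusted p of 0.091 in limma and of 0.10 with 6 week sham m2 left out. It passed at 0.043 without a mouse of a group outside the comparison, 6 week smoke and break m5, and at 0.028 after scaling the arrays to the same spread. Psmd9 and Psmd10, the other assembly chaperones of the regulatory particle, had averages of -0.10, with a 95% interval of -0.29 to 0.08, and -0.03, with one of -0.16 to 0.11.

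Of the lid, which holds the deubiquitinase, Psmd14 and Psmd6 were the members with an unadjusted p under 0.05. Psmd14 measured -1.27, -1.30, -1.37, -1.57 and -1.11 in 6 week smoke and -1.49, -1.82, -1.46, -1.74 and -1.34 in 6 week sham mice, and -1.10, -1.12, -1.26 and -1.23 against -1.24, -1.43, -1.40, -1.71 and -1.26 at 12 weeks. At each duration 3 smoke mice were above all sham mice and the rest lay among them, and the average was 0.21 ± 0.08 at an adjusted p of 0.25 in limma. Psmd6 had an average of 0.20 ± 0.07 at an adjusted p of 0.19. Psmd11, a lid subunit at the level of the background in 15 of the 39 arrays, had the largest 12 week value, 0.46 ± 0.24, with smoke mice from -0.87 to 0.34 and sham mice from -1.03 to 0.14. Psmd4, a ubiquitin receptor, had an average of 0.002 with a 95% interval of -0.14 to 0.15, and Psmd2 and Psmd1, the large scaffold subunits of the base, had averages of 0.05 and 0.11.

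Psme1, Psme3 and Psme4 encode activators that cap the barrel in place of the regulatory particle. Their averages were -0.08 for Psme1, with an interval of -0.19 to 0.04, 0.005 for Psme3 and 0.03 for Psme4, and none had an unadjusted p under 0.05. The second probe of Psme4 was not above the negative controls in any array of 3 groups and is given no fold change. Psmf1, a regulator first described as an inhibitor, had an average of 0.14 ± 0.18 on a dim probe, and Psmg1, Psmg2 and Psmg3 had averages of 0.09, 0.10 and -0.01. The binding partners Psmc3ip and Psme3ip1 had averages of -0.03 and -0.06.

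The second question was what remained 6 weeks after the last cigarette. No member passed in either comparison, where 0% of all probes did, and at an unadjusted p under 0.05 limma held 2 of the 39 core and regulatory genes at 6 weeks, beside 4.32% of all probes in both directions, and 3 at 12 weeks, beside 6.43%. The medians were 0.01 over the core and -0.06 over the regulatory genes after 6 weeks of smoke and 0.07 and -0.01 after 12. Psmd5 measured -0.62, -0.92, -0.88, -0.89 and -1.08 in the 6 week smoke and break group and -0.49, -0.83, -0.76, -0.87 and -0.68 in its sham group, and its log2 fold changes were -0.15 ± 0.09 and -0.08 ± 0.09, on the other side of 0 from those under smoke. Psma3 lay higher in the smoke and break group at both durations, by 0.11 ± 0.11 and by 0.23 ± 0.11, the latter at an unadjusted p of 0.036.

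For the difference between the smoke effect without and with a break no member passed, where 0.125% of all probes did. At an unadjusted p under 0.05 limma held 4 of the 39 genes, Psmc3, Psmc4, Psmc5 and Psmd5, all with the higher value without a break, beside 5.31% of all probes in that direction. Psmc5 measured 0.68 in 12 week break sham m1, where the nearest mouse of its group had -0.62. Its 12 week break difference was -1.15 in the run of that mouse and -0.24 to 0.21 in the other runs. Psmc3 (-1.28) and Psmc4 (-0.72) stood low in 6 week break sham m5, and Psmc3 high (-0.56) in 12 week break sham m1. The part of these arrays in the 4 values was not tested. With 6 week sham m2 left out no member passed and 5 of the 39 genes had an unadjusted p under 0.05, while the calls over all probes went from 22 to 96. The difference was 0.34 ± 0.09 for Psmd5 at an adjusted p of 0.13 in limma, and 0.31 ± 0.10 for Psmc3 at 0.22. With 6 week sham m2 left out these were 0.34 at 0.11 and 0.32 at 0.18 in limma. Over classes the median of the difference was 0.11 for the regulatory genes, 0.19 for the 6 ATPases and -0.004 for the core genes. Without 6 week sham m2 these medians were 0.11, 0.20 and -0.007. The ATPase value joins both sides: their median was 0.14 in the average of smoke over sham and -0.08 after the break at either duration. Between break sham and sham mice, which differ in age at death and in the time since restraint, no member passed either, where 0.911% of all probes did, and 3 of the 39 genes had an unadjusted p under 0.05, beside 12.9% of all probes. The lowest unadjusted p among the members was that of Psmc1, 0.00875, with a log2 fold change of -0.17 ± 0.06 at an adjusted p of 0.20. With 6 week sham m2 left out it was -0.16 at an adjusted p of 0.28, and again 3 of the 39 genes had an unadjusted p under 0.05.

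Averaged over the genes of a class, the arrays moved within a narrow band. The mean over the 16 core genes was -0.51 ± 0.14 (SD, n = 5) in 6 week sham and -0.44 ± 0.03 (n = 5) in 6 week smoke mice, and -0.51 ± 0.09 (n = 5) in 12 week sham and -0.41 ± 0.02 (n = 4) in 12 week smoke mice. The mean over the 23 regulatory genes was -0.66 ± 0.08 and -0.56 ± 0.05 at 6 weeks, and -0.61 ± 0.05 and -0.55 ± 0.07 at 12. The core means of the smoke mice, -0.49 to -0.42 at 6 weeks and -0.43 to -0.39 at 12 weeks, were close together and lay within the ranges of the sham mice, -0.61 to -0.30 and -0.63 to -0.39, apart from the highest mouse at 12 weeks. At 6 weeks the regulatory means overlapped between -0.62 and -0.59. These means are not adjusted for the run. The run with the lowest core mean, run 5 at -0.59, holds 2 arrays labelled 6 week sham, both at -0.61. Of these, 1 is 6 week sham m2, whose Cyp1a1 was that of a smoke array. Run 5 also holds the lowest 12 week sham mouse, at -0.63, but no array labelled 12 week smoke.

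**Figure D4:**
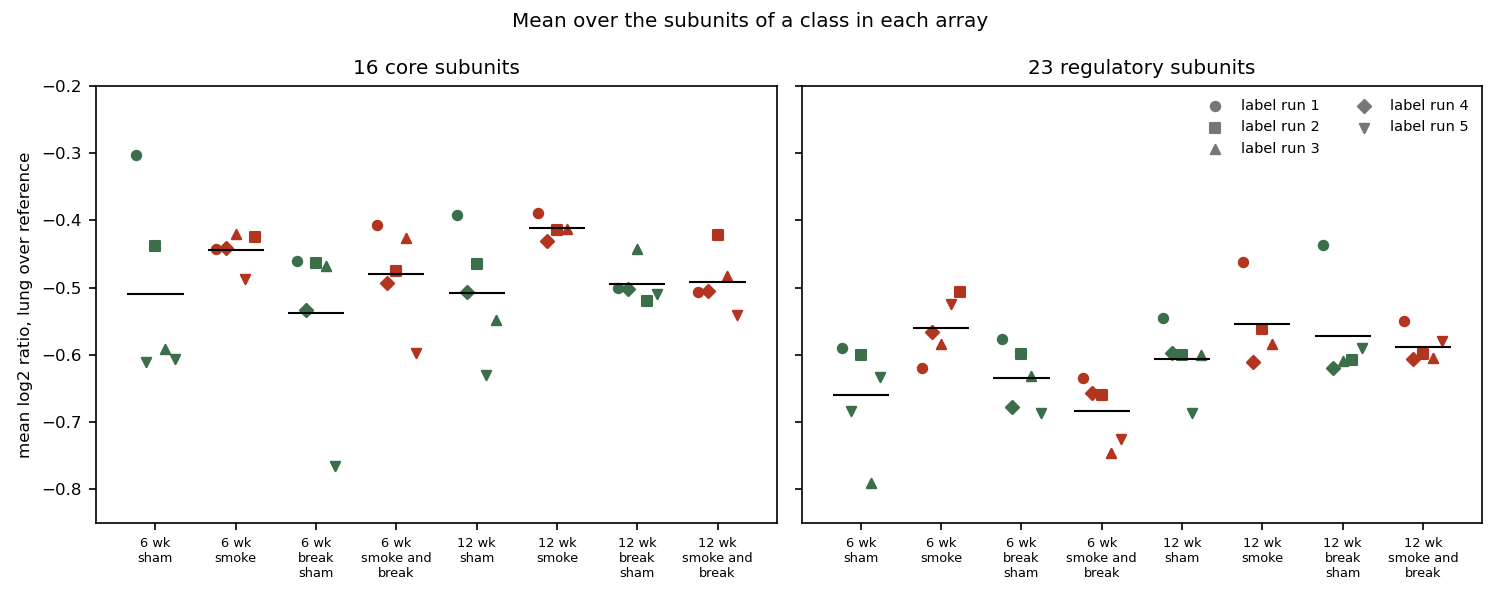
Mean log2 ratio of lung to reference over the 16 core genes (left) and the 23 regulatory genes (right) in each array (green for sham and red for smoke groups), with the group mean as a bar and the run of exposure-date labels as the symbol. Group means lie between -0.54 and -0.41 for the core and between -0.68 and -0.55 for the regulatory genes, and the arrays of the groups overlap.

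The labels give each array an exposure-date label of its own and name no run. The sequence of these labels forms the 5 runs of 7 or 8 arrays, of which 3 hold 1 mouse of each group. The range of the 5 run means had a median of 0.25 over the 39 genes, that of the 8 group means one of 0.29. Psma5 averaged -0.16 in run 1 and -0.83 to -0.77 in the others. Its probe was at the scanner limit in 4 of the 39 arrays in the lung channel and in 7 in the reference channel. Whether this bears on its run means was not tested. Psmb7, Psmb2, Psmb3 and Psmd4 had their lowest run mean in run 5, at -1.87, -1.18, -1.02 and -0.97. The run was a term of the model, and within the 4 runs that hold both groups the median difference of the regulatory genes at 6 weeks was -0.004, 0.12, 0.16 and 0.11 and that of the core genes -0.23, 0.04, 0.14 and 0.07. The regulatory median was thus the higher one in each of these 4 runs, by most in run 1. The size of the gap between the classes at 6 weeks rests in part on run 1. Without its sham mouse, 6 week sham m1, the core median was 0.07. At 12 weeks the core genes gave 0.07, 0.01, 0.12 and 0.06 and the regulatory genes 0.02, 0.02, -0.05 and -0.01. What else changed between the runs was not tested.

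Beyond groups and runs the measured values of the subunits showed little correlation over the arrays in the median. The Pearson correlation of residuals over the 39 arrays had a median of 0.003 over the 120 pairs of core genes, 0.04 over the 253 pairs of regulatory genes and 0.04 over the 368 mixed pairs, beside 0.002 over pairs of every 20th probe tested. Single pairs reached from -0.61 to 0.76. These values are a description over arrays that share the reference and the runs. Each mouse is 1 array, so that differences between mice and noise of measurement cannot be told apart in them.

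Among the genes around the proteasome, 2 passed. Of 12 measured associated and assembly proteins 1 rose in the average over both durations and none fell, beside 0.985% of all probes that rose and 0.233% that fell: Nfe2l2, the transcription factor of the antioxidant response. It measured 1.55, 1.75, 1.59, 2.01 and 2.03 in 6 week smoke and 0.67, 0.33, 1.51, 1.15 and 1.42 in 6 week sham mice, and 1.58, 1.84, 1.96 and 1.87 against 1.07, 0.96, 1.15, -0.68 and 1.42 at 12 weeks. All smoke mice were above all sham mice at both durations, although 1 sham mouse at -0.68 stood far below the rest. The average was 0.88 ± 0.18, a 1.84-fold rise, at an adjusted p of 0.011 in limma, and 0.81 at 0.013 with 6 week sham m2 left out. After the break the log2 fold changes were 0.01 ± 0.25 and 0.09 ± 0.25. Nfe2l1, the main factor for the standard subunits, had an average of -0.12 ± 0.11, and Pomp, which matures the core particle, one of -0.01 ± 0.07.

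In the average over both durations 0.985% of all probes rose and 0.233% fell. Of 9 measured genes of ubiquitin and its delivery 1 rose and none fell. This was Ubqln1, a shuttle that carries ubiquitinated proteins to the proteasome, which measured -0.22, -0.70, -0.69, -0.19 and -0.42 in 6 week smoke and -0.90, -0.77, -0.79, -1.07 and -0.62 in 6 week sham mice. The groups overlapped through 2 smoke mice. Its average was 0.39 ± 0.09, a 1.31-fold rise, at an adjusted p of 0.031 in limma (0.024 with 6 week sham m2 left out), and the median over the 9 genes was -0.03. Of 8 measured genes of the immunoproteasome and of peptide loading none passed, and 7 of the 8 had an average below 0, with a median of -0.09. Psmb9 measured 0.86, 0.97, 1.09 and 0.81 in 12 week smoke and 1.09, 1.15, 1.32, 1.02 and 1.18 in 12 week sham mice. Smoke mice were mostly the lower ones and the groups overlapped. The average was -0.25 ± 0.07 at an adjusted p of 0.056 in limma, or 0.055 with 6 week sham m2 left out, and after the break the log2 fold changes were 0.02 ± 0.09 and 0.01 ± 0.09.

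Of 6 measured macrophage markers 2 rose in the average over both durations, beside 0.985% of all probes that rose and 0.233% that fell. All 6 had an average above 0, with a median of 0.58, and Chil3 and Marco rose by 1.52 ± 0.33 and 0.75 ± 0.18 at adjusted p-values of 0.015 and 0.025 in limma, or 0.0019 and 0.019 with 6 week sham m2 left out. The mean log2 ratio over the 6 markers ran from 1.19 to 1.85 in 6 week sham, from 1.81 to 2.79 in 6 week smoke, from 1.23 to 1.93 in 12 week sham and from 1.95 to 2.43 in 12 week smoke mice. Col3a1, a fibroblast collagen, fell by 0.65 ± 0.12 at an adjusted p of 0.0036 (0.00014 with 6 week sham m2 left out), alone among its 5 measured markers. The markers of alveolar type I cells, of endothelium and of muscle, 4 measured in each list, were all above 0 as well, with medians of 0.20, 0.17 and 0.28. None of the markers of neutrophils, B cells, T and NK cells, endothelium, alveolar or club cells, red cells or muscle passed in the average over both durations. The part of these cells in the values of the subunits was not tested.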

How the data were processed

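Arrays carried 22575 spots, 1257 of them controls. The authors scanned them and deposited ImaGene spot and background intensity medians in both channels (Cy5 for lung, Cy3 for reference) and, separately, LOWESS-normalized log2 ratios, per the file headers. Intensities were background-corrected (normexp, offset 50), loess-normalized within arrays and averaged per probe. A probe was kept if its lung signal was more than 3 SD over the mean of the negative control spots, both trimmed by 5% at each end, in at least 4 arrays of 1 group. limma 3.58.1 in R 4.3.3 fitted all 8 groups with the run of exposure-date labels as a block, and 8 contrasts were tested at an adjusted p of 0.05 over all kept probes. Intervals are 95%. Each mouse is 1 array, and their number limits the precision. Gene names came from the platform annotation. Members and lists were chosen with earlier results of these data known. Named genes were members called in any contrast, the 3 largest and 3 smallest changes among core and among regulatory genes at 6 weeks, at 12 weeks and in the average, and genes listed by role, with other lists described by counts; other genes were named after their values were seen. Correlation of the log2 ratios with those of the authors was 0.975 to 0.996 per array. The fit was tested on simulated data. Other background corrections, scalings, filters, fits and left-out arrays were tried.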

Additional observations from a re-analysis of the deposited data

Results flagged for a closer look

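In 280 groups of 4 or 5 arrays, over 33 named genes and the 2 class means, 26 held 1 array far from the rest of its group by Dixon's test, where chance gives about 1 in 20 groups. Of the 26, 10 were in label run 1 and 10 in label run 5, and none of the causes was tested. The array 6 week break sham m5 stood low for Psma6 (-1.53), Psmc3 (-1.28), Psmc4 (-0.72), Psmd14 (-1.89) and the core mean (-0.77). The array 12 week break sham m1 stood high for Psma5 (0.26), Psmb6 (0.24), Psmc3 (-0.56), Psmc5 (0.68) and the regulatory mean (-0.44). Other arrays of the 12 week break sham group stood apart for Psmb7 (m4, -1.22), Psmf1 (m4, -0.31), Psmd10 (m5, -1.15), Psme1 (m2, 0.41) and the core mean (m3, -0.44). In the 6 week break sham group Psmb1 (m1, 0.14), Psmd3 (m1, 0.16) and Psmd4 (m3, -0.45) stood high. In the smoke and break groups Psma5 (6 week m1, 0.11), Psma7 (12 week m1, -1.19), Psmb6 (12 week m1, 0.43) and Psmd11 (12 week m2, 0.0868) stood apart. Among mice without a break these were Psmb1 in 12 week sham m4 (0.0936), Psmb6 in 6 week sham m5 (0.37), Psmc6 in 6 week smoke m4 (0.0252) and Psmd9 in 6 week sham m2 (-0.83), the array whose Cyp1a1 was that of a smoke array.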

How the results depend on the processing

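No member was called in any of the 8 comparisons under most alternatives. The exceptions were the average over both durations, with 1 member called after scaling the arrays to the same spread (Psmd5), 2 when only probes above the threshold in every array were tested (Psma3 and Psmd5, at adjusted p-values of 0.039 and 0.036, with fewer probes in the adjustment) and 0 to 1 with 1 array left out, and break sham against sham, with 1 member after the same scaling (Psmg2). With median centring in place of loess the medians moved by more than the spread between mice: the regulatory median was 0.18 in the 6 week comparison, -0.084 in the 12 week comparison, -0.15 and 0.055 in the break comparisons and -0.25 in the difference between durations, and the core median was -0.10 in the 6 week break comparison. With marked spots left out, the core median of the difference between durations was 0.029. With 1 array left out, the regulatory median at 6 weeks ran from 0.068 to 0.18. That of the average over both durations ran from 0.038 (without 6 week smoke m4) to 0.085 (without 6 week smoke m1). Over all 17560 probes the average over both durations called 214, but 122 with median centring, 107 without the run, 409 with array weights, 45 when fitted on the groups of the comparison alone, 431 with only probes above the threshold in every array, and 106 (without 12 week smoke m1) to 285 (without 6 week sham m2) with 1 array left out. With 1 array left out the calls over all probes were 7 to 33 at 6 weeks (11 with all arrays; 33 without 6 week sham m2), 44 to 91 at 12 weeks (76; 44 without 12 week smoke m1), 16 to 96 for smoke without against with a break (22; 96 without 6 week sham m2) and 95 to 192 for break sham against sham (160; 95 without 12 week sham m3). Of 5109 recomputed values of single genes 167, all uncalled, changed sign. The cause was not tested. Signal near background limits Psma8, Psmb11, Psmd11 and Psmf1, and the scanner limit most of all Psmb1. In fewer arrays other members reached the scanner limit in a channel, among them Psma5, Psma2, Psmb4, Psmd3 and Psma7.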
